A study of Mus musculus with 28 samples.

Results

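Gene expression in peritoneal macrophages of mice given lipopolysaccharide (LPS) was compared with that of mice given PGN or imiquimod (IMQ). The comparison used 12 of the 28 arrays in the series: the 4 titled for LPS against the 4 for PGN and the 4 for IMQ, chosen by their titles alone. PGN and IMQ each had their own group mean in the model, and the reported difference is the LPS mean minus the average of those means. All injected groups were wild-type C57BL/6 mice injected intravenously with a single named agent at 7 to 8 weeks of age. The labels give 3 weeks between injection and sampling, and the protocol gives 3 to 4 weeks, with mice aged 10 to 12 weeks at sampling. A further 4 arrays from mice injected with PBS show on which side of the controls each group lies. The model was fitted over all 28 arrays, so its estimate of the spread also draws on the remaining groups. These are mice injected with beta-glucan, uninjected wild-type mice and uninjected ATF7 knockout mice. Resident macrophages were washed from the peritoneal cavity without an eliciting agent and kept overnight in serum-free medium, with non-adherent cells washed off. The LPS came from E. coli O111:B4. The sources used here name no dose, sex or number of mice per array, and the 4 arrays per group are described as biologically independent.

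LPS is the outer-membrane glycolipid of Gram-negative bacteria and is sensed by TLR4 with the help of CD14 and MD-2. TLR4 signals through MyD88 from the cell surface and through TRIF from endosomes, and the TRIF branch induces interferon-beta. Peptidoglycan (PGN) preparations are sensed by TLR2 and by the cytosolic sensors NOD1 and NOD2, and imiquimod, a small synthetic agonist, by the endosomal receptor TLR7. Interferons act on macrophages through their receptors and switch on antiviral genes, guanylate-binding proteins, chemokines and antigen presentation. The comparison asks what distinguishes macrophages weeks after a TLR4 ligand from those after ligands of other innate sensors.

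Values are array signals on the log2 scale, so a difference of 1 is a 2-fold change, and errors are SD over 4 arrays unless stated. The 13512 genes tested rose above a background floor of 6.32 on 4 or more arrays of the whole series, out of 21789 probe sets with 1 gene symbol. To set the floor, 1210 probe sets for odorant or vomeronasal receptors were averaged over the arrays, and 95% of their means lie under it. A gene was called at a Benjamini-Hochberg adjusted p under 0.05 in limma. An exact permutation test over all 495 ways to choose 4 of the 12 arrays (two-sided) is given for single genes, and its smallest possible p is 0.00404. Any gene whose 4 LPS arrays do not overlap the other arrays has this smallest p. The largest rises and falls were named for having no overlap, so for them this p was fixed by the choice and is no second test. Of the macrophage markers, Csf1r, the receptor for the macrophage growth factor, averaged 12.58 after LPS, 12.68 after PGN and 12.74 after IMQ. Gata6, the transcription factor of large peritoneal macrophages, averaged 10.51, 10.34 and 10.40. Both genes were well above the floor in all 3 groups, as were some B cell genes. The full marker lists are given below.

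Genes higher after LPS included Nos2 (inducible nitric oxide synthase), 12 of 44 genes of the type I interferon response and 5 of 16 of MHC class I presentation. Genes lower after LPS included Vegfa, Tgm2, Nlrp3, 28 of 49 of oxidative phosphorylation and 16 of 53 of the cell cycle. In all, 3245 genes were called (24%), 1071 higher after LPS (7.93%) and 2174 lower (16.1%), and 1413 without LPS replicate 2. Most differences were small: 50 called genes reached 1.5-fold (0.370%), 18 higher (0.133%) and 32 lower (0.237%). Of those 32, 12 were small nucleolar RNAs, which guide chemical modification of ribosomal RNA and are counted here but not named. All 4 LPS arrays lay above all 8 other arrays for 409 genes (3.03%) and below all 8 for 1103 genes (8.16%), and 338 (2.5%) and 1006 (7.45%) of these were also called. The array signal is from whole cultures, so fewer cells of a type and less RNA per cell cannot be told apart.

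**Figure D1:**
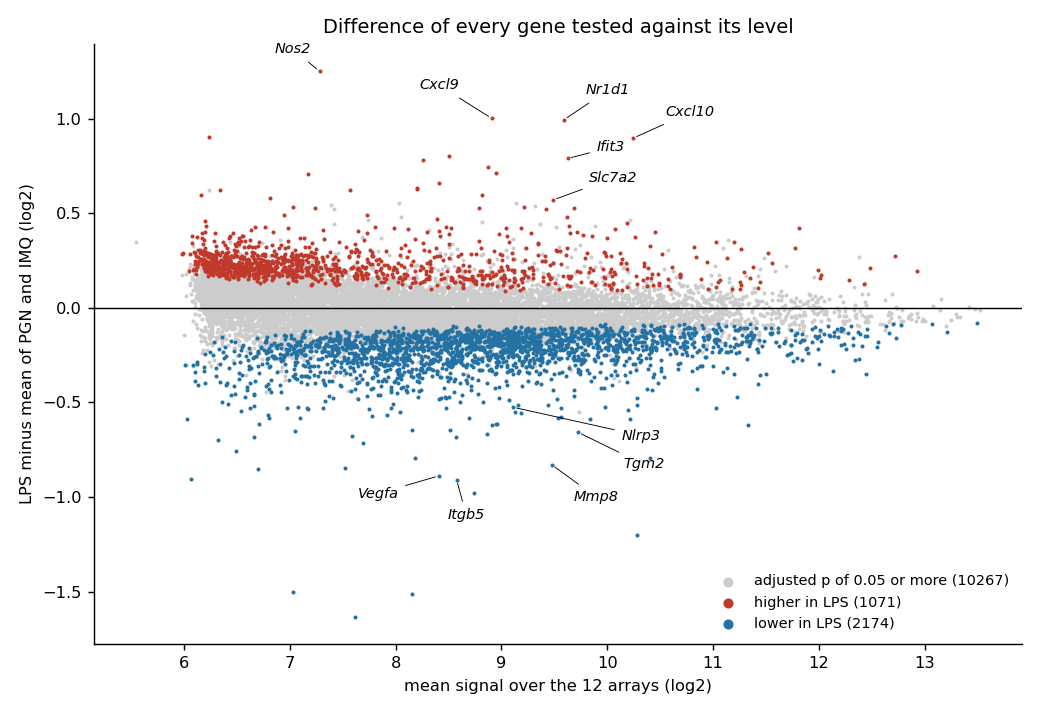
Difference between LPS and the mean of PGN and IMQ (log2, vertical axis) for 13512 genes against the mean signal over the 12 arrays (log2, horizontal axis). Red points are the 1071 genes called higher after LPS, many of them near the floor, and blue points the 2174 called lower.

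Weakly and strongly expressed genes leaned in opposite directions. Among 2830 genes with a mean level of 6.32 to 7, 12.8% were called higher after LPS and 4.59% lower, whereas among 535 genes above 11 the shares were 5.42% and 27.1%. The odorant and vomeronasal receptor probe sets, which serve as background, leaned up with LPS: 278 of 1210 were called higher and 0 lower in limma, with a median difference of 0.17, and 0 were lower against PGN or IMQ alone. Their array means were 4.85 to 4.97 after LPS and 4.66 to 4.85 after PGN or IMQ. Small nucleolar RNA probe sets leaned down, with 31 of 56 lower, 3 higher and a median of -0.29, and their array means of 7.14 to 7.38 after LPS lay below every PGN or IMQ array (7.48 to 7.80). With the odorant mean or the small nucleolar RNA mean as a covariate, chosen after these values were seen, 176 and 43 genes were called. The calls of nearly all single genes named here were lost under at least 1 of these covariates, whereas those of Vegfa, Nlrp3, Ebi3, Insyn2b, Tirap and Zfp36 held under both. These means separate the groups almost as the treatment does, so their part in the results and that of the treatment cannot be told apart. Renewed quantile normalisation gave 1269 higher and 1512 lower genes, and cyclic loess, also added after the data were seen, 1250 and 1561.

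The interferon lists were among those with the largest shares of higher genes. Of 44 measured genes of the type I interferon response, 12 were higher after LPS and 0 lower, and 43 had a positive difference (median 0.29, against -0.02 over all genes). Of 17 genes of the interferon-gamma group, 7 were higher and 0 lower (median 0.30). Over all genes, 7.93% were higher and 16.1% lower. Cxcl9 and Cxcl10, chemokines that attract T cells through CXCR3, were among the largest differences, as was Nos2, inducible nitric oxide synthase.

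Nos2 had the largest fold difference of the genes named here. Its signal was 8.21, 8.35, 8.36 and 7.54 after LPS, against 6.58, 7.21, 6.45 and 6.86 after PGN and 7.56, 6.48, 6.92 and 6.86 after IMQ. LPS replicate 4 fell just under IMQ replicate 1, and every other LPS array lay above all 8. The difference was 2.38-fold (1.25 ± 0.27 SE, limma adjusted p = 0.00198, exact permutation p = 0.00808). PBS arrays held 6.94, 7.41, 6.18 and 6.82, all under the lowest LPS array. Slc7a2, which imports arginine, the substrate of this enzyme, read 9.88, 9.94, 10.06 and 9.59 after LPS. It read 9.24, 9.46, 9.19 and 9.29 after PGN and 9.57, 9.28, 9.25 and 9.12 after IMQ, so the groups did not overlap. Slc7a2 was 1.48-fold higher (limma adjusted p = 0.0034, exact permutation p = 0.00404). These were the called genes among 8 of arginine and nitric oxide metabolism, and the arginase genes Arg1 (6.65 after LPS, 6.74 and 6.70 after PGN and IMQ) and Arg2 (10.28, 10.10 and 9.99) did not pass.

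Cxcl9 held 9.53, 9.87, 9.75 and 9.14 after LPS. PGN arrays held 8.43, 9.11, 7.85 and 8.59, and IMQ arrays 9.70, 7.98, 8.82 and 8.12. IMQ replicate 1 reached the LPS range while the other IMQ arrays and all PGN arrays stayed below it. The 2.0-fold difference (limma adjusted p = 0.00989, exact permutation p = 0.0162) missed the threshold without LPS replicate 2 (adjusted p = 0.0553) and with the B cell marker mean as a covariate (0.0509). Cxcl10 was 1.86-fold higher (limma adjusted p = 0.0324, exact permutation p = 0.0323), from 9.98, 10.91, 11.22 and 11.27 after LPS in ascending order to 9.30 to 10.84 in the other 8 arrays. Its call was lost without any 1 of LPS replicates 1, 2 or 3, PGN replicate 3 or IMQ replicates 2 or 4 (limma adjusted p of 0.0502 to 0.143). It was also lost under robust variance estimation and with the B cell marker mean as a covariate.

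Guanylate-binding proteins attack the membranes of vacuoles that hold microbes. Gbp5 was 1.72-fold higher (8.77 ± 0.43 after LPS, 7.88 ± 0.37 after PGN, 8.10 ± 0.49 after IMQ, limma adjusted p = 0.0325). Gbp4 was 1.63-fold higher (limma adjusted p = 0.0266) and Gbp7 1.34-fold (limma adjusted p = 0.0387). The calls of all 3 were lost without LPS replicate 2 and without LPS replicate 3 (limma adjusted p of 0.0987 to 0.135). They were also lost without IMQ replicate 2, those of Gbp5 and Gbp7 without PGN replicate 3 or IMQ replicate 4, and that of Gbp5 without LPS replicate 1. Robust variance estimation ended the calls of Gbp5 and Gbp7 as well. Batf2, a transcription factor induced by interferon, did not overlap between the groups (8.23 to 8.49 after LPS, 7.82 to 8.19 in the other arrays), and its 1.23-fold difference (limma adjusted p = 0.00568) held without any single array.

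Among the antiviral genes, Ifit3, which binds foreign RNA together with its relatives, read 10.02, 10.42, 10.60 and 9.57 after LPS. It read 9.30, 9.74, 8.97 and 9.37 after PGN and 10.15, 8.91, 9.39 and 9.07 after IMQ. As for Cxcl9, IMQ replicate 1 stood highest among the non-LPS arrays, above LPS replicates 1 and 4. Ifit3 was 1.73-fold higher (limma adjusted p = 0.0147, exact permutation p = 0.0202). The call was lost without LPS replicate 2 (adjusted p = 0.0757) or LPS replicate 3 (0.0605). Oasl1, a regulator of interferon production, was 1.55-fold higher (limma adjusted p = 0.00893), and Herc6, an enzyme of the ubiquitin-like modifier ISG15, 1.44-fold (0.0128). Zbp1, a sensor of Z-form nucleic acid, was 1.44-fold higher (limma adjusted p = 0.0211), Stat2, a component of the interferon-activated factor ISGF3, 1.32-fold (0.0159), and Trim30a 1.27-fold (0.00669). Irf7, the regulator of type I interferon genes, was 1.36-fold higher at the edge of the threshold (limma adjusted p = 0.0487). Herc6, Zbp1 and Stat2 lost their calls without LPS replicate 2 or 3, and Irf7 without any 1 of LPS replicates 2, 3 or 4, PGN replicates 1, 3 or 4 or IMQ replicates 2, 3 or 4. Irf7 also lost its call after centring, without an intensity trend, under robust variance estimation, with array weights and with the B cell marker mean as a covariate. The number of type I members called was 3 without LPS replicate 2, 2 without LPS replicate 3 and 21 without IMQ replicate 1. It was 8 without PGN replicate 3 or without IMQ replicate 2, and 0 with either background covariate, while 0 members were lower under each of these settings. The interferon-gamma group fell from 7 to 1 without LPS replicate 2, to 2 without LPS replicate 3 or IMQ replicate 2 and to 3 without PGN replicate 3 or IMQ replicate 4.

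**Figure D2:**
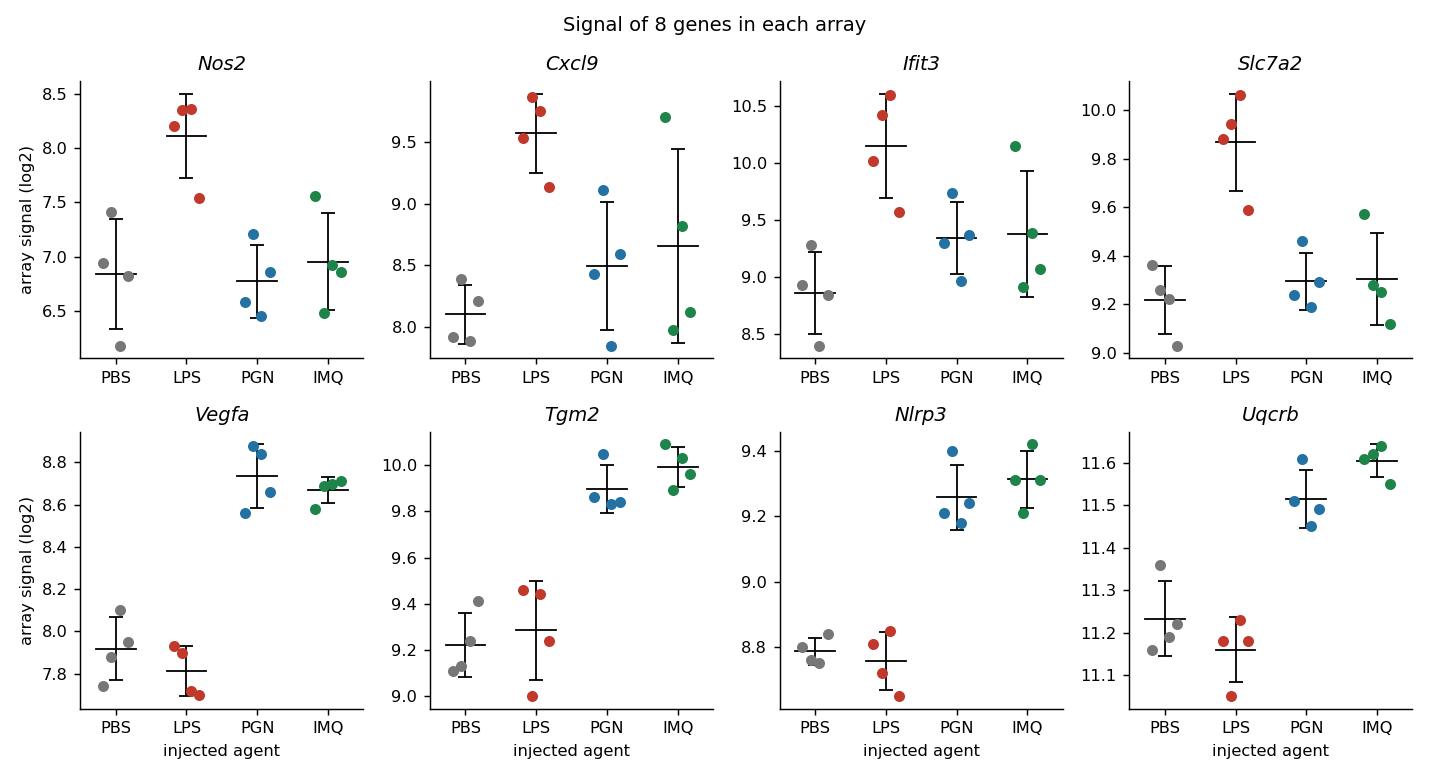
Signal (log2) of 8 genes in each array of the PBS, LPS, PGN and IMQ groups; points are arrays, horizontal lines are means and bars are SD (n = 4). Nos2, Cxcl9, Ifit3 and Slc7a2 sit highest after LPS, and Vegfa, Tgm2, Nlrp3 and Uqcrb sit higher after PGN and IMQ than after LPS or PBS.

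Promoters of these genes were read from RefSeq (GRCm38.p6) as the 250 bases before the annotated start, available for 10740 of the 13512 genes. The interferon-stimulated response element, which is GAAA, any 2 bases and GAAA on either strand, was found in 3.19% of these promoters. It was found in 13 of 33 promoters of the type I list, in 6 of 11 of the interferon-gamma list, in 34 of 821 of all genes higher after LPS (4.14%) and in 56 of 1750 of the lower genes (3.2%). Ifit3, Cxcl10 and Gbp5 are shown because each was higher after LPS and holds the element, which is in capitals (TTTC, 2 bases and TTTC where it lies on the other strand). They do not stand for all named genes. Stat2 and Gbp7 were higher and also hold it, Cxcl9, Oasl1 and Herc6 were higher and do not. Vegfa, which was lower, holds it before an annotated start. Ifit3 has the element at 2 places (chr19:34583279-34583528, plus strand), Cxcl10 at 1 (chr5:92348890-92349139, minus strand) and Gbp5 at 1 (chr3:142496684-142496933, plus strand).
Ifit3: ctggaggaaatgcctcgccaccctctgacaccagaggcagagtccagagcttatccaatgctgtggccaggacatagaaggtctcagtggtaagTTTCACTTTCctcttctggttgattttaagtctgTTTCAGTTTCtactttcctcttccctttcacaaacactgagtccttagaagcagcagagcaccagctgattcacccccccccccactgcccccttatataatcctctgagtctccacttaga
Cxcl10: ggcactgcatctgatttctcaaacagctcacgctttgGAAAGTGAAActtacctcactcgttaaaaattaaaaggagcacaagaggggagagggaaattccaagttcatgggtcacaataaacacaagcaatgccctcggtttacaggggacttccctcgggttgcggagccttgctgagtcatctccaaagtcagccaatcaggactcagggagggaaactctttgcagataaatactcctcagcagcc
Gbp5: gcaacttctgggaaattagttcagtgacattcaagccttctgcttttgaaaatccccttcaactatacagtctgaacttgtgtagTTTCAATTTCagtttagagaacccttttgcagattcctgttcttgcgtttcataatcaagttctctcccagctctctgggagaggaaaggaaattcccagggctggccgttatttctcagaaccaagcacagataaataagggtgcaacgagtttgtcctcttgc
The gamma-activated site, TTCNNNGAA, was in 7.03% of all promoters and in 6 of 11 of the interferon-gamma list. The kB site, GGG, any 5 bases and CC, was in 65.4% of all promoters, so common that its presence separates few genes. A match describes letters in this window and is not a measured binding site.

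Against PBS, with which the LPS, PGN and IMQ comparisons share the control arrays, 33 of the 44 type I genes were higher after LPS, 0 after PGN and 1 after IMQ, in limma at an adjusted p under 0.05. For the interferon-gamma group the counts were 13, 0 and 0 of 17. The median differences from PBS of the type I list were 0.56, 0.27 and 0.27, so most members also had positive values after PGN and IMQ. Over all genes, 4.36% were called higher than PBS and 5.52% lower after LPS (9.88% together). After PGN the shares were 2.09% and 1.81% (3.91% together), and after IMQ 3.09% and 2.60% (5.69% together). Without LPS replicate 2 the LPS counts of both lists fell to 0 and 4 genes were called over the whole array, while the type I median stayed at 0.56. Without LPS replicate 1 the whole-array count was 596, against 1335 with all arrays.

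Part of the MHC class I presentation list was higher after LPS. Of 16 measured class I presentation genes, 5 were higher after LPS and 0 lower (median 0.17), beside 7.93% higher and 16.1% lower of all genes. Tapbp, tapasin, which holds class I molecules at the peptide transporter, was 1.22-fold higher with no overlap (11.64 to 11.82 after LPS, 11.30 to 11.61 in the other arrays, limma adjusted p = 0.000841, exact permutation p = 0.00404). Its relative Tapbpl was 1.27-fold higher (limma adjusted p = 0.00429). Tap1 and Tap2, the subunits of the transporter, were 1.25-fold and 1.14-fold higher (limma adjusted p = 0.029 and 0.0116). Nlrc5, the transactivator of class I genes, was 1.14-fold higher (limma adjusted p = 0.0355). Without LPS replicate 2 the count of 5 fell to 2, and Tap1, Tap2 and Nlrc5 lost their calls; without LPS replicates 3 or 4 or IMQ replicate 2 it was 3, Tap1 and Nlrc5 losing theirs. Nlrc5 also lost its call without PGN replicate 2 or 3 or IMQ replicate 3, after centring each array and with the B cell marker mean as a covariate. Class II genes did not share this shift: 1 of 10, H2-Ob, was lower and 0 were higher, and the class II transactivator Ciita read 7.90 ± 0.27 after LPS against 7.91 ± 0.09 and 7.95 ± 0.09 (limma adjusted p = 0.831).

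Other genes linked to the inflammatory state of macrophages split. Of 30 NF-kB-driven cytokine and chemokine genes, 4 were higher (Nos2, Cxcl1, Vcam1 and Cd86) and 1 lower (Ccl9). Cxcl1, a neutrophil chemokine, was 1.23-fold higher (limma adjusted p = 0.00985). Vcam1, an adhesion molecule for leukocytes, was 1.41-fold higher (limma adjusted p = 0.0295), a call lost without any 1 of LPS replicates 1, 2 or 3, PGN replicate 1 or IMQ replicate 2. Tnf did not pass (10.09 ± 0.11 after LPS, 9.84 ± 0.23 and 9.86 ± 0.23, limma adjusted p = 0.0897), although it did without PGN replicate 2 (0.0373) or IMQ replicate 1 (0.0493), under quantile normalisation (0.0375), cyclic loess (0.0346) and array weights (0.0293). Il1b (7.83 ± 0.26 against 7.54 ± 0.19 and 7.56 ± 0.42), Cxcl2 (10.23 ± 0.34 against 10.30 ± 0.26 and 10.34 ± 0.15) and Ccl3 (11.94 ± 0.03 against 12.07 ± 0.02 and 11.83 ± 0.09) did not pass either (limma adjusted p from 0.151 to 0.911), but Il1b did with array weights (0.0426). Of 29 NF-kB factors and feedback genes, 4 were higher and 1 lower. Over all genes, 7.93% were higher and 16.1% lower. Tnfaip2 was 1.24-fold higher (limma adjusted p = 0.000194), Zfp36, which destabilises cytokine mRNA, 1.22-fold (0.00161), and the NF-kB subunit Rela 1.12-fold (0.00653), whereas the subunit Rel was 1.09-fold lower (0.0126). Rel lost its call under quantile normalisation, under cyclic loess, without LPS replicate 2 and with the B cell marker mean as a covariate.

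A second set of higher genes had PBS levels near those of LPS, with the PGN and IMQ groups below. Ebi3, a subunit shared by the cytokines IL-27 and IL-35, read 9.99, 9.96, 10.06 and 9.68 after LPS. It read 9.53, 9.55, 9.42 and 9.47 after PGN, 9.46, 9.44, 9.54 and 9.50 after IMQ, and 9.83, 9.91, 9.65 and 9.69 after PBS. No PGN or IMQ array reached the LPS or PBS range. Ebi3 was 1.35-fold higher than in the other groups (limma adjusted p = 2.35e-05, exact permutation p = 0.00404), and lower than PBS after PGN (limma adjusted p = 0.0191) and after IMQ (0.0133). Its call held under all 28 alternative settings. Hmox1, haem oxygenase, was likewise lower after PGN and IMQ than after LPS or PBS (11.99 ± 0.13 after LPS, 11.70 ± 0.10 and 11.64 ± 0.04, PBS 12.07 ± 0.22, 1.25-fold, limma adjusted p = 0.00635), as were Tirap and Zfp36. The receptor gene Gpr52 (1.54-fold, limma adjusted p = 7.28e-06) and Insyn2b (1.34-fold, 2.54e-05) were also lower than PBS after both PGN and IMQ. The taste receptor gene Tas2r135 was called higher after LPS (limma adjusted p = 2.14e-05), and it lay at or under the floor in 6 of the 8 PGN and IMQ arrays.

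Cd274, encoding the checkpoint ligand PD-L1, was 1.39-fold higher (9.94 ± 0.09 after LPS, 9.44 ± 0.07 and 9.48 ± 0.17, limma adjusted p = 0.000269). PBS stood between at 9.66 ± 0.12, with no group passing against it (limma adjusted p of 0.0517 after LPS). Slc31a2, a copper transporter, was 1.34-fold higher (12.10 ± 0.07, 11.69 ± 0.06 and 11.66 ± 0.08, limma adjusted p = 1.61e-05) and also above PBS after LPS (limma adjusted p = 0.0189). Without LPS replicate 2, 1 gene over the whole array was called above PBS after LPS. Nr1d1, the circadian repressor REV-ERB alpha, was 1.99-fold higher: 10.43, 9.99, 10.34 and 10.25 after LPS, 9.26, 9.12, 8.78 and 8.99 after PGN, and 9.61, 9.63, 9.17 and 9.52 after IMQ (limma adjusted p = 3.54e-05, exact permutation p = 0.00404). Its PBS arrays spread from 8.89 to 9.99. Krtap5-3 (1.58-fold, limma adjusted p = 5e-05), Spaca6 (1.34-fold, 0.000834) and Tns1, which links integrins to actin (1.35-fold, 0.0127), were also higher without overlap between the arrays. Tns1 lost its call without LPS replicate 2 and when the probe sets of a gene were averaged. Asns, asparagine synthetase, was 1.32-fold higher (limma adjusted p = 0.00196).

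Vegfa, the angiogenic growth factor, showed the firmest difference on the lower side. It read 7.93, 7.90, 7.72 and 7.70 after LPS, 8.56, 8.88, 8.84 and 8.66 after PGN, and 8.58, 8.69, 8.70 and 8.71 after IMQ. PBS arrays held 7.74, 7.88, 8.10 and 7.95, so LPS and PBS shared a range and PGN and IMQ shared another. Vegfa was 1.85-fold lower after LPS (-0.89 ± 0.07 SE, limma adjusted p = 3.64e-08, exact permutation p = 0.00404). Against PBS it was higher after PGN (limma adjusted p = 5.4e-06) and IMQ (5.31e-06), and not called after LPS (0.392).

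Tgm2, a transglutaminase that crosslinks proteins and marks alternatively activated macrophages, behaved likewise in all 16 arrays. It read 9.46, 9.0, 9.44 and 9.24 after LPS, 9.86, 10.05, 9.83 and 9.84 after PGN, 10.09, 9.89, 10.03 and 9.96 after IMQ, and 9.11 to 9.41 after PBS. The difference was 1.58-fold (limma adjusted p = 3.16e-06), and the exact permutation p was 0.00404. Nlrp3, the sensor of the inflammasome that activates IL-1beta, read 8.81, 8.72, 8.85 and 8.65 after LPS against 9.18 to 9.40 after PGN and 9.21 to 9.42 after IMQ, with PBS at 8.75 to 8.84. It was 1.44-fold lower (limma adjusted p = 2.04e-07), and the calls of Nlrp3 and Vegfa held under all 28 alternatives. Irf4, a transcription factor of alternative activation and of antigen-presenting cells, was 1.35-fold lower (7.67 ± 0.14, 8.01 ± 0.06 and 8.19 ± 0.14, limma adjusted p = 0.00111). It was above PBS after IMQ (limma adjusted p = 0.00316) and not called after PGN (0.0723). With the mannose receptor Mrc1 these are the 4 of 19 alternative activation genes that were lower, a share near the 16.1% of all genes, and 0 were higher.

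**Figure D3:**
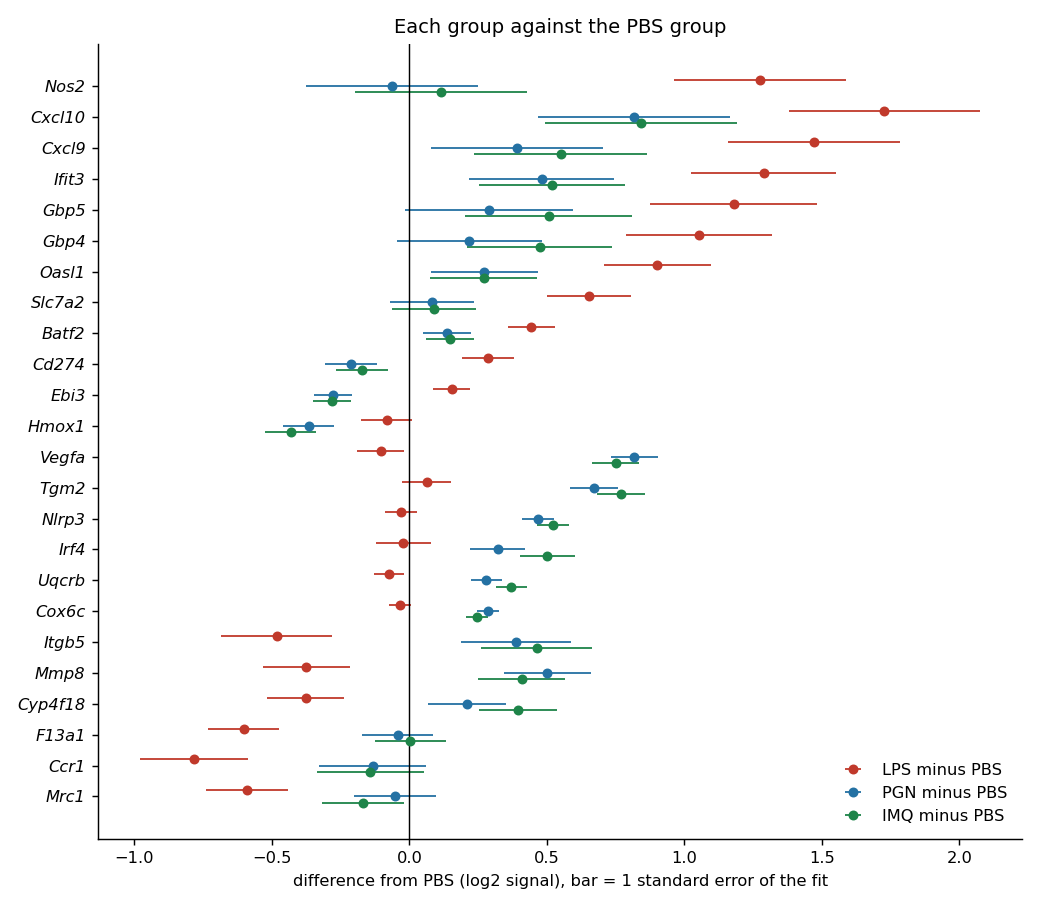
Difference of the LPS, PGN and IMQ groups from PBS (log2, horizontal axis) for 24 genes; points are fitted values and bars 1 standard error, and all 3 comparisons share the 4 PBS arrays. From Nos2 down to Batf2 the LPS point lies farthest to the right, from Vegfa down to Cox6c the PGN and IMQ points lie right of 0 with LPS near 0, and for F13a1, Ccr1 and Mrc1 the LPS point lies left of the others.

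Receptors and adaptors that sense the injected ligands included 10 lower and 1 higher of 36 measured (median -0.10), beside 16.1% lower and 7.93% higher of all genes. The list averaged 9.71 after LPS, 9.79 after PGN and 9.80 after IMQ. Among genes with a mean level of 9 to 10, 24.3% were lower and 5.05% higher, so the lower share of the list was near that of its level. For LPS itself, Tlr4 was 1.15-fold lower at the edge of the threshold (8.77 ± 0.16 after LPS, 8.91 ± 0.10 and 9.03 ± 0.07, limma adjusted p = 0.0447), and 13 of 28 alternatives, ended the call, among them leaving out LPS replicate 1, 2 or 3, PGN replicate 1 or 2, or IMQ replicate 1 or 3. Ly96, encoding MD-2, was 1.15-fold lower with no overlap (11.20 to 11.38 against 11.44 to 11.58, limma adjusted p = 0.0126), a call lost without LPS replicate 2 (0.0942). Cd14 did not pass (11.11 ± 0.18, 11.27 ± 0.12 and 11.28 ± 0.07, limma adjusted p = 0.0723), but did without LPS replicate 1 (0.0242) or PGN replicate 3 (0.0442), after centring (0.0418) and with the B cell covariate (0.0299). Ly86, encoding MD-1, the partner of RP105, was 1.15-fold lower (limma adjusted p = 0.00152). Tlr7, the receptor of imiquimod, read 10.90, 10.87, 10.90 and 10.95 after LPS and 11.06 to 11.26 in the 8 others, without overlap. It was 1.17-fold lower (limma adjusted p = 0.00129) and also below PBS after LPS (limma adjusted p = 0.0324). Without LPS replicate 2, 3 genes over the whole array were called below PBS after LPS.

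For the sensing of PGN, Tlr1, a partner of TLR2, was 1.26-fold lower (limma adjusted p = 0.00621), a call lost with the B cell marker mean as a covariate. Tlr2 (11.08 ± 0.15 after LPS, 10.97 ± 0.14 and 11.04 ± 0.17), Nod1 (8.75 ± 0.07, 8.91 ± 0.07 and 8.92 ± 0.07) and Nod2 (7.45 ± 0.16, 7.26 ± 0.12 and 7.38 ± 0.16) did not pass (limma adjusted p from 0.0872 to 0.414), though Nod1 did after centring (0.0442) and in a fit of the LPS, PGN and IMQ arrays alone (0.0142). Pycard, the inflammasome adaptor ASC, was 1.13-fold lower (limma adjusted p = 0.00471), and higher than PBS after PGN and IMQ (0.00215 and 0.00264). Tirap, the adaptor that brings MyD88 to TLR4 and TLR2, was the single higher member, 1.16-fold, with 9.35 to 9.49 after LPS and 9.12 to 9.31 in the others (limma adjusted p = 0.000922). Myd88 (10.49 ± 0.06, 10.44 ± 0.07 and 10.50 ± 0.04) and Ticam1, encoding TRIF (9.44 ± 0.04, 9.51 ± 0.06 and 9.35 ± 0.03), did not pass (limma adjusted p = 0.752 and 0.915). The lower count of the list was 6 under quantile normalisation and 5 without LPS replicate 2.

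Oxidative phosphorylation had the largest share of lower genes among the lists. Of 49 subunits and assembly partners of oxidative phosphorylation, 28 were lower and 0 higher, and 46 had a negative difference (median -0.14). The lower share was 16.1% over all genes and 24.3% over genes with a mean level of 9 to 10, where this list lies. Uqcrb, of complex III, read 11.18, 11.05, 11.23 and 11.18 after LPS, 11.51, 11.61, 11.45 and 11.49 after PGN, and 11.61, 11.62, 11.64 and 11.55 after IMQ, without overlap. It was 1.32-fold lower (exact permutation p = 0.00404, limma adjusted p = 6e-06), with PBS at 11.23 ± 0.09. Atp5pb, of ATP synthase, was 1.28-fold lower (limma adjusted p = 2.86e-05), Cox6c, of cytochrome c oxidase, 1.23-fold (3.4e-06), and Ndufv2, of complex I, 1.2-fold (0.000488). Against PBS 12 members were higher after PGN and 9 after IMQ, and 0 were higher and 1 lower after LPS. Of all genes, 2.09% were higher than PBS after PGN and 3.09% after IMQ, and 4.36% were higher and 5.52% lower after LPS. The PGN count was 4 without PGN replicate 2. The count of 28 became 14 lower and 1 higher under quantile normalisation, 13 and 1 under cyclic loess, 15 without LPS replicate 2, 18 with the B cell marker mean as a covariate, 3 with the odorant mean and 0 with the small nucleolar RNA mean.

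Of 47 cytosolic ribosomal protein genes, 17 were lower and 1 higher (median -0.08), beside 16.1% lower and 7.93% higher of all genes. Among genes with a mean level of 10 to 11, where this list lies, 24.2% were lower. Rps13 was 1.26-fold lower (limma adjusted p = 0.00036) and Rpl5 1.18-fold (0.000435), while Rplp2 was 1.23-fold higher (0.000942). These genes have many processed copies in the genome, and probes may read more than 1 of them. Centring each array gave 27 lower and 1 higher, quantile normalisation 12 and 3, and either background covariate left 0 called.

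Of 53 cell cycle genes 16 were lower, 0 higher and 48 had a negative difference (median -0.18), beside 16.1% lower and 7.93% higher of all genes. E2f1, a regulator of entry into S phase, was 1.16-fold lower with no overlap (8.33 to 8.52 against 8.59 to 8.68, limma adjusted p = 0.00103), with LPS close to PBS (8.40 ± 0.09) and with PGN and IMQ above PBS (limma adjusted p = 0.00633 and 0.00503). Rrm1, of ribonucleotide reductase, was 1.32-fold lower (limma adjusted p = 0.00548), lost without LPS replicate 2 (0.0514) and with the B cell marker mean as a covariate. Gins1, of the replicative helicase, was called lower (limma adjusted p = 0.000123) at levels close to the floor, 6.04 to 6.42 after LPS against 6.47 to 6.84. The count of 16 was 3 without LPS replicate 2, 8 without LPS replicate 1, 9 without IMQ replicate 3, 4 with the B cell marker mean as a covariate and 0 with either background covariate.

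**Figure D4:**
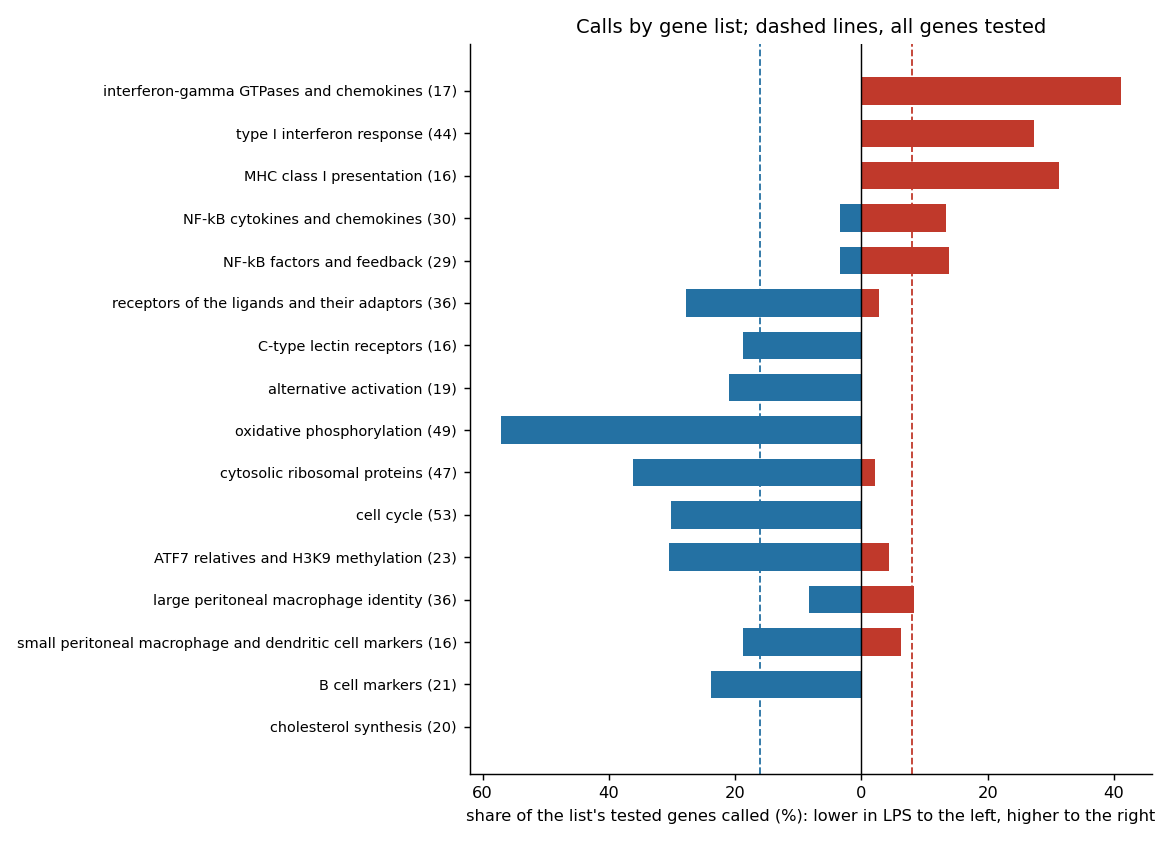
Share of each gene list called lower (blue, to the left) or higher (red, to the right) after LPS, in percent of the genes tested, whose number is in brackets; dashed lines mark all genes (16.1% lower, 7.93% higher). The interferon and class I lists extend to the right with 0 lower calls, and oxidative phosphorylation extends farthest to the left.

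Another set of lower genes had PBS levels near those of PGN and IMQ, with LPS below. F13a1, a coagulation factor subunit made by macrophages, read 8.26, 8.29, 8.24 and 8.44 after LPS and 8.65 to 9.18 in the 8 others, with PBS at 8.64 to 9.31. It was 1.5-fold lower (limma adjusted p = 0.000745) and below PBS after LPS (0.0143). Ccr1, a receptor for CC chemokines, was 1.56-fold lower (7.09 to 8.08 against 8.14 to 8.60, limma adjusted p = 0.00778), which rested on LPS replicate 2, the lowest array (0.0866 without it). Orm1, an acute-phase glycoprotein, was 1.60-fold lower (limma adjusted p = 0.00324) and Mrc1, the mannose receptor, 1.39-fold (0.00956, lost without LPS replicate 1 at 0.0577). Both were also below PBS after LPS (limma adjusted p = 0.0144 and 0.0227). Without LPS replicate 2, 3 genes over the whole array were called below PBS after LPS, so such calls depend largely on that array.

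For further genes PBS stood between the groups. Itgb5, an integrin that binds vitronectin and apoptotic cells, was 1.88-fold lower (7.66 to 8.43 after LPS, 8.68 to 9.17 in the others, limma adjusted p = 0.000764), while its PBS arrays spread from 7.67 to 9.16. Mmp8, a collagenase, was 1.78-fold lower (limma adjusted p = 0.000206), Cyp4f18, which inactivates leukotriene B4, 1.60-fold (0.000438), and Ppbp, a platelet chemokine precursor, 1.5-fold (0.00484). Pdk4, the kinase that shuts pyruvate dehydrogenase, was 1.48-fold lower (limma adjusted p = 0.0027). The zinc finger gene Zfp971 was 1.5-fold lower (limma adjusted p = 5.47e-05), and its relatives Zfp931 and Zfp975 were called lower (0.00113 and 0.0011) with 3 of 4 LPS arrays at or under the floor.

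Markers of other cells in the cultures were measured beside these genes. Of 21 B cell markers 5 were lower (Blnk, Bank1, Bhlhe41, Fcrla and Ebf1) and 0 higher, with a median of -0.21. Over all genes, 16.1% were lower and 7.93% higher. The count was 2 without LPS replicate 2 and 3 without LPS replicate 1 or 3, PGN replicate 3 or IMQ replicate 1 or 3. The mean over the 21 was 8.26 to 8.39 in the LPS arrays, 8.32 to 8.70 after PGN, 8.46 to 8.64 after IMQ and 8.30 to 8.60 after PBS. Defining B cell genes were well above the floor: Cd79a read 10.04 ± 0.15 after LPS, 10.21 ± 0.18 after PGN and 10.41 ± 0.13 after IMQ, and Ms4a1 8.44 ± 0.04, 8.66 ± 0.31 and 8.92 ± 0.19, without passing (limma adjusted p = 0.204 and 0.15). Bank1, a B cell scaffold protein, was 1.54-fold lower (limma adjusted p = 0.000746) and Blnk, a linker of the B cell receptor, 1.28-fold (0.00032). With the B cell mean as a covariate 2095 genes were called, 628 higher and 1467 lower; whether B cells contributed to single genes was not tested. The type I interferon list had 12 higher under that covariate, and the interferon-gamma list had 4 higher and 1 lower.

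**Figure D5:**
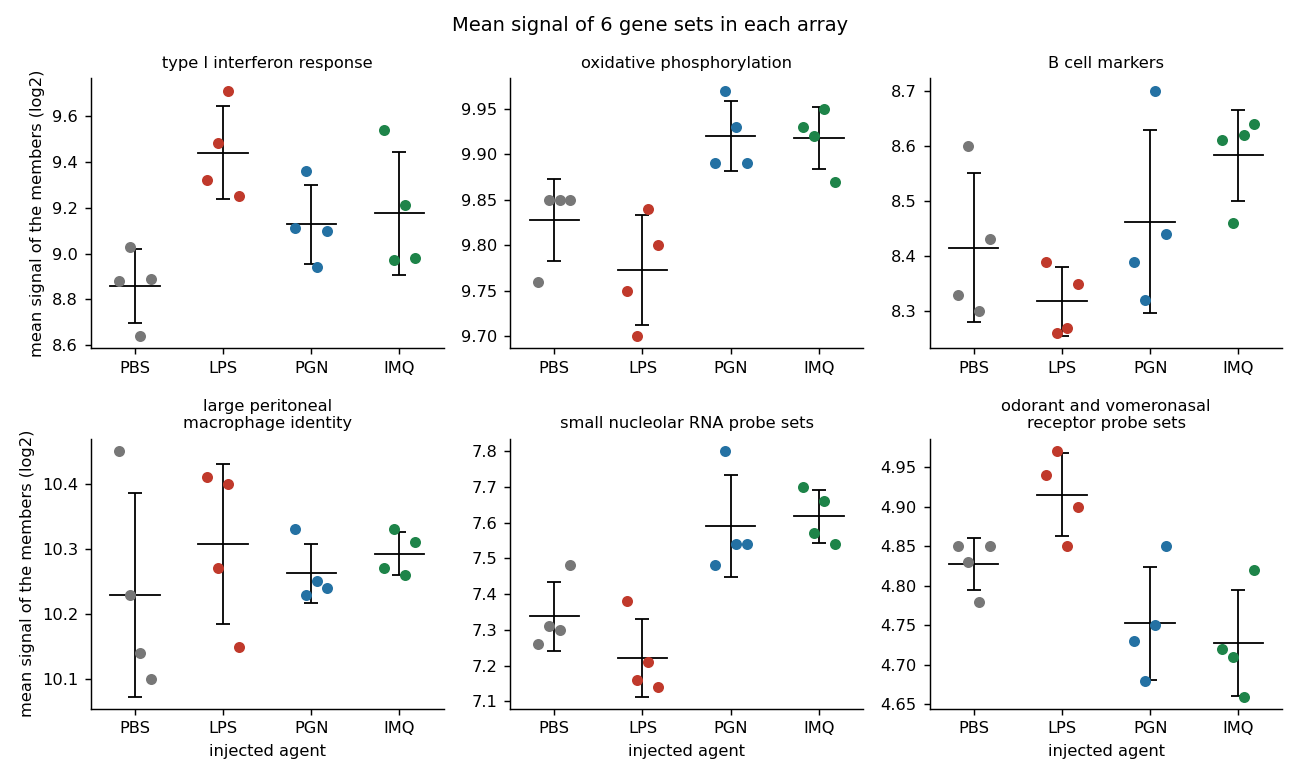
Mean signal (log2) of the members of 4 gene lists and 2 probe classes in each array of the PBS, LPS, PGN and IMQ groups; points are arrays, lines means and bars SD (n = 4). The interferon mean is highest after LPS but overlaps IMQ replicate 1 and PGN replicate 2, the oxidative phosphorylation and small nucleolar RNA means lie lower after LPS than in every PGN or IMQ array, and the identity list does not separate the groups.

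Other cell markers were near the floor or mixed. Of 24 T and NK cell markers 8 were measured and 1, Cd3e, was higher; of 16 neutrophil markers 7 were measured, with Camp higher and Mmp8 and S100a8 lower, S100a8 lying at or under the floor in all 4 LPS arrays. Of 16 mast cell, basophil and eosinophil markers 5 were measured and Siglecf was higher. Col1a1 and Col1a2 were higher among 14 measured mesothelial and stromal genes, and Ppbp and Pf4 lower among 5 erythroid and platelet genes. The small peritoneal macrophage and dendritic cell list had 1 higher (Zbtb46) and 3 lower (Irf4, Folr2 and Ccr2) of 16. All these counts stand beside 7.93% higher and 16.1% lower of all genes, and those of this last list were near these shares. Ccr2, the monocyte chemokine receptor, was 1.31-fold lower (limma adjusted p = 0.0126), lost without LPS replicate 2 (0.0651) and with the B cell marker mean as a covariate.

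Identity genes of large peritoneal macrophages showed no common shift, with 3 of 36 higher (Thbs1, Garnl3 and Bmp1), 3 lower (Itgam, Csf1r and Lyz1) and a median of 0.04. Itgam, the integrin CD11b, was 1.21-fold lower (limma adjusted p = 0.000746) and Csf1r 1.10-fold (0.00138, lost under cyclic loess), while Gata6 did not pass (0.304). In the remaining lists, C-type lectin receptors had 3 of 16 lower, complement genes 1 higher and 3 lower of 15, and Fc gamma receptors 1 of 5 lower. Uptake receptors for apoptotic cells and lipoproteins had 3 higher and 6 lower of 29, iron and haem genes 2 and 3 of 16, and lysosome and autophagy genes 3 and 9 of 38. Glycolysis genes had 1 higher and 3 lower of 21, PPAR and LXR lipid genes 1 and 5 of 26, and NRF2 targets 2 and 2 of 26. ATF4 and unfolded protein response genes had 3 and 3 of 36, immediate early genes 1 and 2 of 25, heat shock genes 1 and 1 of 10, and matrix and coagulation genes 3 and 1 of 22. Cholesterol synthesis had 0 called of 20. Read against the 16.1% lower and 7.93% higher of all genes, the largest lower share among these lists was the 9 of 38 of lysosome and autophagy. That share was near the 24.2% lower of genes with a mean level of 10 to 11, where the lysosome and autophagy list lies.

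ATF7, the stress-responsive factor that the series deletes in other mice, did not differ in transcript: Atf7 read 10.81 ± 0.04 after LPS, 10.76 ± 0.04 after PGN and 10.82 ± 0.03 after IMQ (limma adjusted p = 0.817). Of 23 genes of ATF7 relatives and histone H3K9 methylation, 7 were lower and 1 higher, beside 16.1% lower and 7.93% higher of all genes. Among genes with a mean level of 8 to 9, where this list lies, 21.1% were lower. Without LPS replicate 2, 2 members were lower, and 4 were lower under quantile normalisation. Cbx3, the heterochromatin protein HP1 gamma, was 1.30-fold lower (8.31 ± 0.08, 8.65 ± 0.07 and 8.73 ± 0.06, limma adjusted p = 1.96e-05). Atf1 was 1.17-fold lower (limma adjusted p = 0.000609) and Atf2, a close relative of ATF7, 1.11-fold (0.0116, lost without LPS replicate 2 and under cyclic loess). Kdm4a, a demethylase of H3K9, was 1.12-fold higher (limma adjusted p = 0.00721).

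The effect of deleting ATF7 was measured on 8 other arrays, uninjected knockout and wild-type mice, and shares no array with this comparison. Of the 1071 genes higher after LPS, 138 were higher in the knockout (12.9%) and 91 lower (8.5%). Of the 2174 lower genes 540 were higher (24.8%) and 266 lower (12.2%), against 17.7% and 10.7% of all genes. Both shares of the higher genes lay under those of all genes, and more of the 2174 lower genes were higher than lower in the knockout. Among the 18 genes higher by at least 1.5-fold, 8 were higher in the knockout and 3 lower, and among the 32 lower by at least 1.5-fold, 4 were higher and 11 lower. Ifit3 rose by 1.55 on the log2 scale in the knockout (limma adjusted p = 6.65e-05) and Oasl1 by 1.17 (4.64e-05), whereas Nos2 (0.15, adjusted p = 0.782) and Cxcl9 (0.49, 0.264) did not pass. With the B cell mean as a covariate the genes called in the same direction in both comparisons numbered 160, against 404 without it. In the knockout 16 of the 21 B cell markers were lower and 1 higher (median -0.85). Their mean was 7.53 to 7.94 in the knockout arrays and 8.03 to 8.63 in the wild-type arrays, so this covariate also separates those groups.

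Against each ligand on its own, 1632 genes were called between LPS and PGN (12.1%), 403 higher (2.98%) and 1229 lower (9.10%), and 2590 between LPS and IMQ (19.2%), 871 higher (6.45%) and 1719 lower (12.7%). These comparisons share the LPS arrays. In both, 277 genes were called higher (2.05%) and 914 lower (6.76%). Without LPS replicate 2 the counts were 676 and 1195, without PGN replicate 2 the first was 815, without LPS replicate 1 the first was 1066, and without IMQ replicate 3 or 2 the second was 1325 or 1681. Between PGN and IMQ themselves 0 genes were called by limma; 669 had an unadjusted p under 0.05 (4.95%), and limma with array weights called 113. Vegfa differed from LPS by -0.92 for PGN and -0.85 for IMQ, Nlrp3 by -0.50 and -0.55, and Nos2 by 1.34 and 1.16.

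The called genes were also placed against PBS, and the shares for PGN and IMQ were similar for the higher and the lower genes. Of the 1071 genes higher after LPS, 288 were also called above PBS after LPS (26.9%, against 4.36% of all genes). After PGN and IMQ, 108 and 134 of them were called below PBS (10.1% and 12.5%, against 1.81% and 2.60% of all genes). Of the 2174 lower genes, 398 were called below PBS after LPS (18.3%, against 5.52% of all genes). After PGN and IMQ, 218 and 280 of them were called above PBS (10% and 12.9%, against 2.09% and 3.09% of all genes). Among the 18 higher genes of at least 1.5-fold, 15 were above PBS after LPS. Among the 32 lower ones 6 were below PBS after LPS, 14 above PBS after PGN and 14 after IMQ. Without LPS replicate 2, 1 gene was called above PBS and 3 below it after LPS over all genes. The counts against PBS after LPS therefore rest on that array. The PBS comparisons use the same LPS, PGN and IMQ arrays that chose these genes, so the counts describe where the difference lies and are no second test of it.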

How the data were processed

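Total RNA of each macrophage culture was amplified and hybridised to 1 Affymetrix mouse gene array. Per the labels, the authors deposited linear signal intensity per probe set, made with RMA in Affymetrix Expression Console; the sources used here name neither its version nor a genome build. RMA quantile-normalises the arrays, so a global shift in RNA amount would not be seen. An array has no count depth, and the number of arrays limits the precision. Here, the intensity was taken to log2. Of 35556 probe sets, 21789 carried 1 gene symbol, 1621 several and 12146 none; 21698 symbols matched RefSeq. Probe sets above the floor (80.04 linear) in at least 4 arrays numbered 14800, and the one with the highest mean stood for its gene. limma 3.58.1 in R 4.3.3 fitted 1 mean per group over 28 arrays (21 residual degrees of freedom), with empirical Bayes and an intensity trend, and Benjamini-Hochberg adjustment within each comparison. The fit was tested on simulated data with independent noise for each gene and array. Of the shifts of 0.5 on the log2 scale 66 of 67 were recovered, and 16 of the 215 genes called were unshifted. The simulation held no shift common to a whole array, so it does not cover the lean of the background probe sets. Where nothing beyond the labels states separate mice, p-values measure the spread between these arrays. No date or slide was given, so batches were not tested.

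Genes named are the 12 largest rises and falls without overlap, the 6 smallest p-values of each list with at least 3 called members and a fixed set; genes outside this rule were chosen after their values were seen. The members and the gene lists were chosen with earlier results of these data known. Scaling, filters, the arrays and variance model used, array weights, probe set averaging, a replicate block, a B cell covariate and leaving out each array were tried as alternatives; cyclic loess and the odorant receptor and small nucleolar RNA covariates were added after seeing the data. Python 3.11.15, scipy 1.17.1 and matplotlib 3.10.9 were used for tables and figures.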

Additional observations from a re-analysis of the deposited data

Results flagged for a closer look

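In the LPS, PGN and IMQ groups of the 94 genes described and of 11 means over gene lists or probe classes, 315 groups of 4 arrays were examined for an array far from the other 3, judged by its gap to the nearest array over the group's range. Chance alone gives about 1 such array in 20 groups, and 16 were found, 5 of them in PGN replicate 2. In that array the actin linker Tns1 was lowest (7.95, nearest 8.53), the transglutaminase Tgm2 highest (10.05, nearest 9.86), the acute-phase gene Orm1 highest (7.85, nearest 7.77), the ribosomal gene Rplp2 lowest (7.38, nearest 7.6) and Zfp36, which destabilises cytokine mRNA, highest (9.94, nearest 9.66).

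In the LPS group, replicate 2 was highest for Krtap5-3 (9.15, nearest 8.77) and lowest for Ly96, the MD-2 gene (11.20, nearest 11.37). Replicate 1 was highest for the NF-kB subunit gene Rel (10.78, nearest 10.73), and replicate 4 for the monocyte chemokine receptor gene Ccr2 (7.21, nearest 6.74).

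In the IMQ group, replicate 4 was lowest for the respiratory chain genes Cox6c (12.02, nearest 12.10) and Ndufv2 (10.95, nearest 11.07) and for the B cell linker gene Blnk (10.03, nearest 10.2). Replicate 2 was lowest for the adaptor gene Myd88 (10.44, nearest 10.52) and for the mean of the B cell markers (8.46, nearest 8.61). Replicate 3 was lowest for Tns1 (8.12, nearest 8.28) and replicate 1 for the ribosomal gene Rpl5 (11.50, nearest 11.55).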

How the results depend on the processing

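Of the 3245 genes called, 2921 were called with the same sign after centring each array, 2267 after quantile normalisation, 2198 after cyclic loess and 1955 with the B cell covariate; 173 with the odorant receptor covariate and 36 with the small nucleolar RNA covariate. The sign alone was shared by 3239 under the odorant covariate and 2854 under the small nucleolar RNA covariate. Leaving out 1 array gave 1413 to 3367 calls (lowest without LPS replicate 2), 676 to 1805 for LPS against PGN, 1195 to 2840 for LPS against IMQ, 445 to 1306 in both (445 without LPS replicate 2, 641 without PGN replicate 2) and 0 to 0 for PGN against IMQ. Against PBS the ranges were 4 to 1711 for LPS, 283 to 566 for PGN (lowest without PGN replicate 4; 311 without PGN replicate 3, 341 without PGN replicate 1) and 400 to 826 for IMQ (400, 479 and 449 without IMQ replicates 1, 2 and 3). Calls of at least 1.5-fold numbered 50.

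The B cell covariate gave 2095 calls, 1257 for LPS against IMQ, 758 in both, 479 for IMQ against PBS, and 160 shared in direction with the knockout. The odorant covariate gave 176, 133 (PGN), 88 (IMQ), 50 (both) and 12 for LPS against PBS. The small nucleolar RNA covariate gave 43, 42, 23, 16 and 31, and 830 for PGN against PBS. Array weights gave 113 for PGN against IMQ, and 2018, 1419 and 1699 for LPS, PGN and IMQ against PBS. LPS against PBS gave 861 under quantile normalisation and 2282 with only injected groups. The cause of these shifts was not tested.

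Replicate numbers are shared by the groups, but same-numbered arrays did not deviate together (12 pairs, correlations -0.46 to 0.37, median -0.02, 2 over 0.1). With the replicate number as a block over the injected arrays 3867 genes were called, and 2207 for LPS against PBS.

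Small uncalled differences changed sign: Ciita to 0.0039 (quantile), 0.042 (B cell covariate), 0.054 and 0.017 (without LPS replicates 1 and 3; range over left-out arrays -0.15 to 0.054); Myd88 to -0.0095 (centring); Cd14 to 0.032 (small nucleolar RNA covariate); Ticam1 to -0.021 (centring), -0.00188 (B cell), -0.016 (odorant), -0.0083 (without LPS replicate 2) and -0.000111 (without PGN replicate 4; up to 0.025 without another array). Atf7 went to -0.015 (centring), -0.011 (B cell), -0.029 (odorant), -0.028 (small nucleolar RNA) and -0.0029 (without LPS replicate 1; up to 0.026 without another array). Cxcl2 went to 0.069 (array weights), 0.30 (small nucleolar RNA) and 0.060 (without LPS replicate 4; down to -0.21 without another array), and Ccl3 to 0.039 (quantile), 0.051 (loess), 0.040 (small nucleolar RNA), 0.0026 (without LPS replicate 4) and 0.0049 (without IMQ replicate 2; down to -0.031 without another array). The called gene Tns1 went to -0.092 under the small nucleolar RNA covariate.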

Other observations

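Core circadian clock genes, a set chosen after the value of Nr1d1 was seen, differed in both directions. Of 16 measured, 2 were higher after LPS and 5 lower, beside 7.93% and 16.1% of all genes. Besides Nr1d1, its relative Nr1d2, also a repressor of the clock activator Arntl, was 1.19-fold higher (limma adjusted p = 0.00396). Arntl, encoding BMAL1, read 7.56, 7.65, 7.67 and 7.41 after LPS, 7.94, 7.97, 7.92 and 7.84 after PGN, and 7.70, 8.01, 8.00 and 7.92 after IMQ, so every LPS array lay below the 8 others. It was 1.27-fold lower (limma adjusted p = 0.000708) and below PBS after LPS (limma adjusted p = 0.0156). Without LPS replicate 2, 3 genes over the whole array were called below PBS after LPS. The repressor genes Cry1 and Per2 were 1.31-fold and 1.17-fold lower (limma adjusted p = 0.000311 and 0.00485), and Bhlhe40 and Bhlhe41, which bind the same promoter element as BMAL1, 1.18-fold and 1.41-fold (0.018 and 0.00898). Bhlhe41 is also on the B cell marker list. The time of day at which mice or cultures were sampled is not given in the sources used here, so its part in these values was not tested.

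MicroRNA probe sets leaned as the odorant receptor probe sets did, with 66 of 308 higher after LPS, 10 lower and a median of 0.11. The 12146 probe sets without a gene did not lean, with 1025 higher and 1004 lower.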
